A study of Rattus norvegicus with 4 samples.

Results

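Aggrecan, versican, link proteins and matrilins were followed in articular cartilage of the rat proximal tibia, where the superficial zone at the joint surface (SFZ) was compared with the layers beneath it (deep AC). The rows of the deposited table whose gene symbol was Acan, Vcan, Hapln1, Hapln3, Matn1, Matn2, Matn3 or Matn4 were taken, 8 rows of 31007. The tissue came from 2 Sprague-Dawley rats aged 10 weeks, with no genotype or treatment named in the labels. Both zones of each rat were cut out of frozen sections by laser microdissection, and polyA RNA was amplified before sequencing, which gave 4 libraries and 2 within-rat differences per gene. Nothing in the labels ties the rats to separate litters or days, so p-values describe these libraries alone. The spread behind each p-value is also drawn from other genes by limma, since each gene leaves 1 residual degree of freedom.

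Aggrecan is the large proteoglycan whose sulfated sugar chains hold water in cartilage. Its N-terminal domain binds hyaluronan, and a link protein binds both partners and holds them together, so that many aggrecan molecules sit on each hyaluronan chain. Versican is a related proteoglycan of looser tissues and of developing cartilage. Matrilins are adaptor proteins of the matrix that assemble into oligomers and connect collagen fibrils with proteoglycans. Matn1 and Matn3 are known mainly from cartilage, while Matn2 and Matn4 occur in many connective tissues.

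Of the 8 genes, 6 were above 0 in at least 1 library. Vcan (rn4 chr2:19712629-19801443, minus strand) and Matn2 (rn4 chr7:69715611-69880723, plus strand) were listed at 0 in all 4 libraries and are reported as not measured. The table does not tell a gene without reads from one that was not counted. Matn1 had too few reads to be tested, which left Acan, Hapln1, Hapln3, Matn3 and Matn4 among 8799 tested genes, those whose scaled reads averaged 10 or more across the 4 libraries. Values are log2 scaled reads less the median of the gene's own row, so they compare libraries and say nothing of the level of one gene against another. Differences are SFZ minus deep AC. In bulk tissue pieces, fewer cells of a type and less RNA per cell cannot be told apart.

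The sequences just before the annotated starts are shown for Acan, Hapln1 and Matn3, which stood lower in SFZ in both rats. RefSeq promoters of GRCr8 were at hand for 4 of the 8 genes, the fourth being Vcan. Each line gives the 250 bases before the start, 5′ to 3′, with matches to 4 motifs in capitals. The motifs, searched on both strands, were the SOX core ACAAAG, its variant AACAAT, the TATA box TATAAA and the GC box GGGCGG. The Acan stretch is chr1:142390701-142390950, that of Hapln1 is chr2:22366717-22366966 and that of Matn3 is chr6:37467479-37467728, all on the plus strand.
Acan: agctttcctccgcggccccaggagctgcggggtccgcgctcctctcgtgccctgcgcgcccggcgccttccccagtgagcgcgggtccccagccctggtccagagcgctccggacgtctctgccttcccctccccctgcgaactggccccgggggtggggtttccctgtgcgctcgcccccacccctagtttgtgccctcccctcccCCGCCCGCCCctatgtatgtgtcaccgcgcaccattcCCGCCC
Hapln1: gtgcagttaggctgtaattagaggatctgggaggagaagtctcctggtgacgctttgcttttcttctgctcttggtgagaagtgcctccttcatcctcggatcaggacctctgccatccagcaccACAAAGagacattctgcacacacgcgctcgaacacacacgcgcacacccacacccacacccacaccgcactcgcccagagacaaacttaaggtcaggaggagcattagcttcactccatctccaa
Matn3: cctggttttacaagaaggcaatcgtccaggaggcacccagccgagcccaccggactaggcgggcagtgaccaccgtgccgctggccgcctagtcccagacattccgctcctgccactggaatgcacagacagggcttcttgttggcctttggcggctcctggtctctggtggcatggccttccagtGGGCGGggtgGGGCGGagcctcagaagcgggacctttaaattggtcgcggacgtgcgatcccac
The 3 stretches differ in composition. Acan has 73.6% G and C, more than 95.5% of the 33469 promoters in the table, Matn3 has 64.0% and Hapln1 54.0%, against a median of 51.2%. Acan holds 3 GC boxes on the strand opposite to the gene, of which the first 2 overlap, and Matn3 holds 2 on its own strand. A GC box occurs in 30.5% of all promoters of this length. Hapln1 holds a single SOX core, which occurs in 16.3% of promoters, with its first base at -125 counted from the start. Neither the AACAAT form, which occurs in 10.3% of promoters, nor the TATA box, which occurs in 12.9%, is written in the 3 windows. These matches describe letters and were not tested as sites.

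Aggrecan mRNA stood lower in SFZ than in deep AC of both rats. Acan (Entrez 58968, rn4 chr1:134787341-134848992, plus strand) had values of -0.78 in SFZ of rat 1 and -1.25 in SFZ of rat 2, against 0.78 and 1.26 in deep AC of the same rats. Both SFZ libraries lay below both deep AC libraries. Acan was 2.93-fold lower in SFZ in rat 1 and 5.72-fold lower in rat 2. The mean difference was -2.03 ± 0.68 (SD, n = 2 rats; SE 0.42, 95% interval -3.15 to -0.92) and did not pass the test over all genes (limma, adjusted p = 0.373, unadjusted p = 0.00614). By limma 0 of 8799 genes passed at an adjusted p of 0.05, 0.0% of those tested, while 800 (9.09%) had an unadjusted p under 0.05, 448 of them lower in SFZ, which is 5.09% of those tested. The difference of Acan was of a common size in these data, since 16.3% of tested genes had a mean difference as low or lower.

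Both link protein genes stood lower in SFZ beside Acan. Hapln1 (Entrez 29331, rn4 chr2:19576064-19638104, plus strand), which encodes the link protein of cartilage, had values of -1.02 and -0.47 in SFZ of rats 1 and 2 and of 0.47 and 1.26 in deep AC. The groups did not overlap, although SFZ of rat 2 and deep AC of rat 1 were closer to each other than the zones of either rat. Hapln1 had the smallest spread between rats of the 5 tested genes, 2.80-fold lower in rat 1 and 3.31-fold lower in rat 2. The rats averaged -1.61 ± 0.17 (SD, n = 2 rats; limma SE 0.36, adjusted p = 0.411, unadjusted p = 0.00811).

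Hapln3 (Entrez 308773, rn4 chr1:134851846-134859702, minus strand), a link protein gene with a wider distribution in tissues, had values of -0.58 and -2.46 in SFZ and of 1.26 and 0.58 in deep AC. SFZ of rat 2 was the lowest library, and the groups did not overlap. Hapln3 was 3.58-fold lower in SFZ in rat 1 and 8.22-fold lower in rat 2, a mean difference of -2.44 ± 0.85 (SD, n = 2 rats; limma SE 0.46, adjusted p = 0.330, unadjusted p = 0.00408). Without SFZ of rat 2 the difference was -1.50, and with quantile normalization it passed (-2.66; limma adjusted p = 0.0434).

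The link proteins did not differ from Acan by the same amount in both rats. The difference of Hapln1 was 0.06 above that of Acan in rat 1 and 0.79 above it in rat 2. The difference of Hapln3 was below that of Acan by a similar step in both, at -0.29 and -0.52. With 2 rats, no exact two-sided test of such a pair of values can go below 0.5, so these are descriptions. Col2a1, the main collagen gene of cartilage, was taken as a second reference, with a difference of -2.51 in rat 1 and -2.60 in rat 2. It does not stand for the matrix as a whole. The 13 tested collagen and small proteoglycan genes described below had medians of -0.90 and -1.13. Against Col2a1, Hapln1 stood 1.02 and 0.87 less low and Acan 0.96 and 0.08 less low. Hapln3 stood 0.67 above Col2a1 in rat 1 and at -0.44 against it in rat 2.

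**Figure D1:**
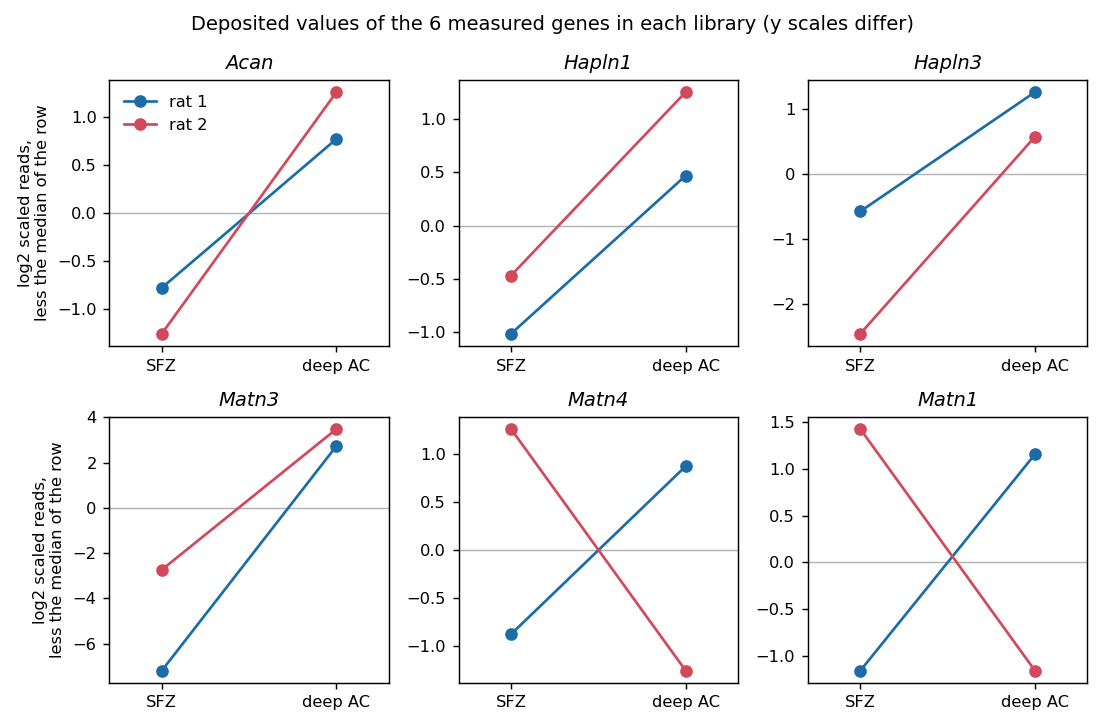
Deposited log2 scaled reads, less the median of each row, in SFZ and deep AC for the 6 measured genes; each point is 1 library and lines join the 2 zones of a rat. Acan, Hapln1, Hapln3 and Matn3 stand lower in SFZ in both rats, while the lines of Matn4 and Matn1 cross.

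Matn3 showed the widest separation of the zones. Matn3 (Entrez 313954, rn4 chr6:32439372-32459031, plus strand) encodes matrilin 3, a cartilage matrix adaptor in which human mutations cause multiple epiphyseal dysplasia. SFZ of rat 1 sat at the floor of the table, which is 1 scaled read, and this fixed the reads of the other libraries. There were 0 reads in SFZ of rat 1 and 22 in SFZ of rat 2, against 984 in deep AC of rat 1 and 1786 in deep AC of rat 2. The SFZ libraries differed from each other, but both were far below deep AC.

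In rat 1 Matn3 was at least 320-fold lower in SFZ, taking 3 reads as the limit that a count of 0 allows in that library. In rat 2 the scaled ratio of deep AC to SFZ was 74.8 (exact Clopper-Pearson 95% interval 49.3 to 120, which covers counting error only). On the log2 scale the differences were -9.94 and -6.23, where the first is taken against the floor and depends on it, and the mean was -8.08 ± 2.62 (SD, n = 2 rats; limma SE 1.48, adjusted p = 0.329, unadjusted p = 0.00375). Of the 8799 tested genes, 20 had a lower mean difference. Without SFZ of rat 1 the difference was -5.85, and with quantile normalization it passed (-7.20; limma adjusted p = 0.036). Less the difference of Acan, that of Matn3 was -8.39 in rat 1 and -3.71 in rat 2.

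Matn4 did not separate the zones. Matn4 (Entrez 296358, rn4 chr3:155411588-155426606, minus strand), a matrilin gene of several connective tissues, had values of -0.87 in SFZ of rat 1, 1.26 in SFZ of rat 2, 0.87 in deep AC of rat 1 and -1.25 in deep AC of rat 2. SFZ was the lower zone in rat 1, by 3.36-fold, and the higher one in rat 2, by 5.71-fold. The mean difference was 0.38 ± 3.01 (SD, n = 2 rats; limma adjusted p = 0.962), with a 95% interval of -4.10 to 4.87 that allows large differences in either direction. Opposite differences of at least 2-fold were found in 11.2% of tested genes.

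Matn4 overlaps Rbpjl on the opposite strand over 1487 bases. The sources used here do not say whether counting used strand, so reads of this stretch cannot be assigned to one gene. Rbpjl, which encodes a transcription factor related to RBPJ, also differed in opposite directions, by -1.42 in rat 1 and 1.67 in rat 2. The other 7 genes had no overlapping row. Markers of skeletal muscle went different ways. Of 9 such markers, 3 (Acta1, Tnnc2 and Tnnt3) were at 0 in all libraries and 3 were tested. Of the tested markers, 1 was at least 2-fold apart in opposite directions in the rats and 1, Tnni2, was lower in SFZ in both, at -9.66 and -10.47. At the level assumed for it, Tnni2 reached the minimum level through deep AC alone, so it had to differ. The 5 with known or resolved levels, which leave out Tnni2, summed to 3.07 scaled reads in SFZ of rat 1, 150.1 in SFZ of rat 2, 78.2 in deep AC of rat 1 and 0 in deep AC of rat 2. Their part in the values of Matn4 was not tested.

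Matn1 was close to the limit of detection. Matn1 (Entrez 297894, rn4 chr5:149805644-149815347, plus strand) encodes matrilin 1, known as cartilage matrix protein. It had 0 reads in SFZ of rat 1, 6 in SFZ of rat 2 and 5 in deep AC of rat 1. Deep AC of rat 2 was at the floor, where 0 and 1 read cannot be told apart. The higher libraries were those in which Matn4 was higher, but at 5 and 6 reads a difference between zones was not detectable at this depth.

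Of the 8 genes, 4 were at least 2-fold lower in SFZ in both rats and none was at least 2-fold higher in both. Over all tested genes 11.9% were lower and 6.41% higher by this rule, 1047 and 564 genes, against 695 lower and 927 higher with quantile normalization, in which the 4 genes were lower too. The same 4 genes had SFZ and deep AC values that did not overlap, with SFZ below, which held for 22.9% of tested genes. They also had an unadjusted limma p under 0.05, as had 5.09% of tested genes with SFZ lower. These counts are drawn from the same 4 libraries, so they are not separate results.

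**Figure D2:**
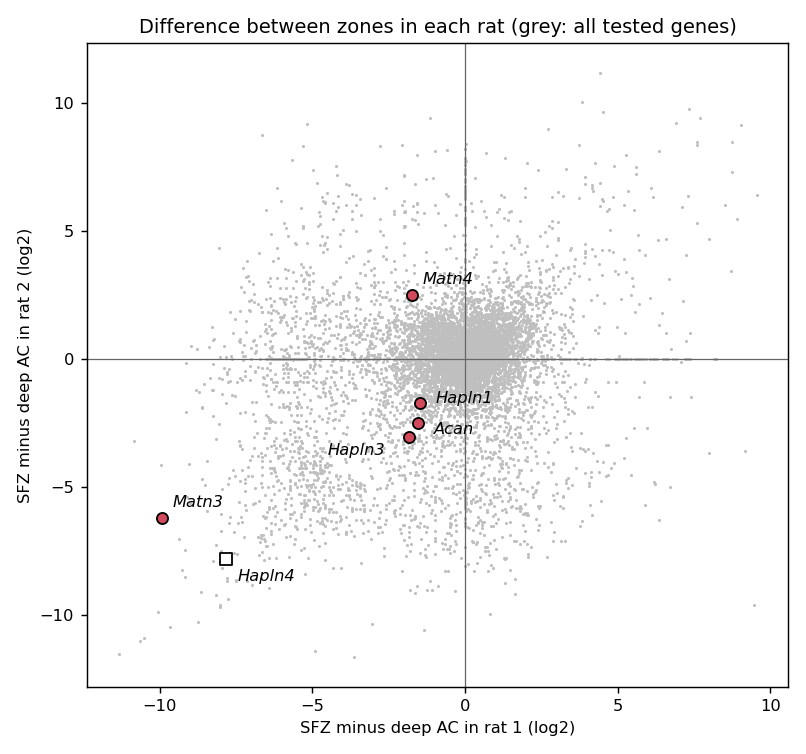
Difference SFZ minus deep AC (log2) in rat 1 on the x axis and rat 2 on the y axis; grey points are the 8799 tested genes, red circles the 5 tested genes of the set, and the open square is Hapln4. Acan, Hapln1 and Hapln3 lie close together between -3.04 and -1.49 on both axes, Matn3 lies at -9.94 and -6.23, and Matn4 lies in the quadrant of opposite signs.

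The genes of aggrecan relatives and link proteins lie in pairs along the rat genome, and Acan and Hapln3 are the 1 pair with both genes tested. Acan and Hapln3 face each other on chromosome 1 with 2853 bases between their spans in rn4 and no other row between them, and both were lower in SFZ. Hapln1 lies 74524 bases from Vcan on chromosome 2, which was not measured here. Hapln4, a link protein gene known from the brain, lies 4669 bases from Ncan, the neurocan gene, on chromosome 16. Hapln4 had 0 reads in SFZ of either rat, while deep AC had 227 in rat 1 and 244 in rat 2, at least 73.7-fold and 75.0-fold lower in SFZ by the same limit of 3 reads. It reached the minimum level through deep AC alone, so it had to differ (limma adjusted p = 0.411). Ncan had 7 reads in deep AC of rat 1, and in the other 3 libraries it was at the floor. Bcan, the brevican gene, had 30 reads in SFZ of rat 2, and was at the floor elsewhere, and its neighbour Hapln2 was listed at 0 in all 4 libraries.

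Among tested genes outside the set, the 5 with library values most like those of Acan were Zfx, Tceal1, RGD1303142, Usp45 and Ppp1r16a. Likeness was the Euclidean distance over the 4 libraries after the mean of each row was taken off, and ran from 0.21 for Zfx to 0.33 for Ppp1r16a. Zfx stood at -1.28 and -2.46 in rats 1 and 2 and Ppp1r16a at -1.73 and -2.17. The distance from Acan was 0.87 for Hapln1, 1.36 for Hapln3, 3.56 for Matn4 and 6.99 for Matn3. Outside the set 111 genes were nearer to Acan than Hapln1 was. With 4 libraries such a distance describes the values and singles out no gene.

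The collagens and small proteoglycans to which matrilins and aggrecan are bound were mostly lower in SFZ as well. Of 13 tested members of this list, 10 were lower in both rats, 6 of them at least 2-fold, and 2 were higher in both. The list's medians were -0.90 in rat 1 and -1.13 in rat 2. Over all tested genes 28.9% were lower in both rats, 11.9% by at least 2-fold, and 25.1% higher in both. The medians over all tested genes were -0.13 and 0.00. None passed the limma test. The largest differences with the same sign in both rats were those of Lum, which encodes lumican, at -2.64 and -7.38, and Col9a2, a chain of the type IX collagen that matrilin 3 binds, at -3.38 and -2.69. Lum had 33 reads in SFZ of rat 1, 0 in SFZ of rat 2, and 211 and 180 in the deep AC libraries.

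Genes that make the sugar chains of aggrecan went both ways. Of 24 tested genes of chondroitin and keratan sulfate synthesis and sulfation, 10 were lower and 6 higher in both rats, against the 28.9% and 25.1% of all tested genes. By at least 2-fold 1 was lower and 3 were higher, against 11.9% and 6.41% of all tested genes. The medians were -0.08 and -0.55, against -0.13 and 0.00 over all genes. The 3 higher genes were Csgalnact1 at 1.85 and 1.99, B3galt6 at 1.11 and 1.99 and B3gnt2 at 1.10 and 1.29. B4galt1, a galactosyltransferase gene and the 1 lower by at least 2-fold, stood at -5.61 and -4.50. It reached the minimum level through deep AC alone and had to differ. B4galt4, another galactosyltransferase gene, stood at -0.31 and -3.59. None passed the limma test.

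Genes of hyaluronan, the chain on which aggrecan assembles, went both ways. Of 10 tested, 3 were lower and 2 higher in both rats, against 28.9% and 25.1% of all tested genes. By at least 2-fold 1 was lower and 2 were higher, against 11.9% and 6.41% of all tested genes. The medians were 0.09 and -0.02, against -0.13 and 0.00 over all genes, and none passed by limma. Has2, a hyaluronan synthase gene, stood at -0.28 and -0.21. Itih3, which encodes a heavy chain that can be bound to hyaluronan, had 203 and 199 reads in the SFZ libraries, 11 in deep AC of rat 1 and was at the floor in deep AC of rat 2. Hmmr, a hyaluronan receptor gene that is also a gene of dividing cells, had 0 reads in SFZ of either rat and 17 and 26 in deep AC. Hmmr was the 1 gene of the list at least 2-fold lower in both rats and reached the minimum level through deep AC alone, and Itih3 reached it through SFZ alone, so both had to differ. Prg4, the other gene higher by at least 2-fold, stood at 2.11 and 3.48. At the level assumed for it, Prg4 did not reach the minimum level through SFZ alone. Of 3 tested ligands of the C-type lectin domain of aggrecan and versican, none had the same sign in both rats.

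Proteases that cut aggrecan and their inhibitors also went both ways. Of 11 tested, 5 were lower and 4 higher in both rats, against 28.9% and 25.1% of all tested genes. By at least 2-fold 3 were lower and 0 higher, against 11.9% and 6.41% of all tested genes. The medians were -0.45 and 0.00, and none passed. Timp4, a protease inhibitor gene, had 0 reads in SFZ of either rat, with 183 and 447 in deep AC. Mmp13, a collagenase gene of hypertrophic cartilage that also cuts aggrecan, had 0 and 0 against 254 and 116. Timp4 and Mmp13, 2 of the 3 genes at least 2-fold lower, reached the minimum level through deep AC alone and had to differ. The remaining gene, Mmp3, stood at -10.84 and -3.21. At the level assumed for it, Mmp3 did not reach the minimum level through deep AC alone. The aggrecanase gene Adamts4 stood at -4.60 and -0.95. Adamts5 had 0 reads in SFZ of rat 1 and 20 in SFZ of rat 2, and was at the floor in deep AC. Adamts1 had 0 reads in SFZ of either rat, with 11 and 22 in deep AC. Adamts5 and Adamts1 had too few reads to be tested.

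**Figure D3:**
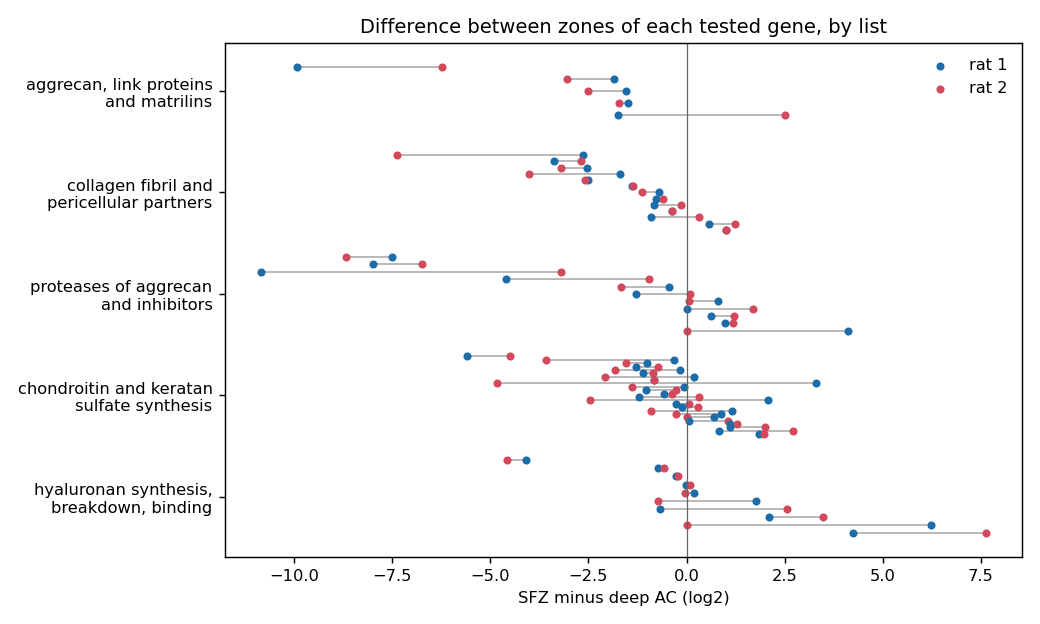
Difference SFZ minus deep AC (log2, x axis) of each tested gene in rat 1 (blue) and rat 2 (red), joined by a line, for the set and 4 lists of its partners and enzymes. The set and the collagen partners lie mostly left of 0, with 10 of 13 partners lower in both rats, while the enzymes of sulfated chains and the hyaluronan genes lie on both sides.

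Markers of the labelled zones and of other cell types differed between the libraries. Each of 6 tested superficial zone markers was higher in SFZ in both rats, and 6 of 7 tested markers of hypertrophic and calcified cartilage were at least 2-fold lower in both. Of these 6, Mmp13 and Phospho1 reached the minimum level through deep AC alone and had to differ. Over all tested genes 25.1% were higher and 28.9% lower in both rats, 6.41% and 11.9% by at least 2-fold. The marker lists were chosen with earlier results of these data known, so their counts are no independent check of the zones. Of 10 tested chondrocyte markers, 3 of which are genes of the set, 10 were lower in SFZ in both rats, with medians of -2.52 and -2.65, and Sox9 was listed at 0. Beside the low values of Acan, Hapln1, Hapln3 and Matn3, markers of synovial and tendon fibroblasts had medians of 0.53 and 1.53. Of 9 tested, 6 were higher in both rats, 2 of them at least 2-fold, and 2 were at least 2-fold lower in both. Col1a1 was among the higher at 7.16 and 2.27, and Dpt among the lower at -1.33 and -10.59. Col1a1 reached the minimum level through SFZ alone and had to differ. Thy1 and Mkx were at 0 in all libraries. Their 6 members with known levels summed to 2620 and 3297 scaled reads in SFZ and to 1636 and 2843 in deep AC. Of 5 tested osteoblast markers, 4 were at least 2-fold lower in SFZ in both rats, 2 of them having reached the minimum level through deep AC alone, Sp7, Sost and Runx2 were at 0 in all libraries, and the 4 with known levels summed to 293 and 6.01 scaled reads in SFZ and to 742 and 110.7 in deep AC. Macrophage markers went both ways, with medians of 3.53 in rat 1 and 0.00 in rat 2 over 7 tested, Lyz2 at 3.53 and 0.43 and Ptprc at -2.03 and -1.02. Their 9 rows summed to 3273 and 1731 scaled reads in SFZ and to 3815 and 1825 in deep AC. Endothelial markers were represented by 1 tested gene, with Cdh5, Emcn, Tie1 and Vwf at 0. Of 4 tested erythroid markers, 2 differed by at least 2-fold in opposite directions in the 2 rats, against 11.2% of all tested genes. The part of these cell types in the values of the set was not tested. SFZ libraries were at the floor for 872 and 796 tested genes and deep AC libraries for 189 and 352.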

How the data were processed

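Per the labels' protocols, areas of cryosections were collected by laser microdissection and mRNA was amplified linearly before Illumina libraries were made. The deposited values are log2 values with the median of each row set to 0. Per the file headers each row has a symbol and a position, the table's title names TMM scaling, and rn4 is the build per the submitters' processing notes. Software for alignment and counting: not given in the sources used here. In rows above the floor in 1 library, 93.98% to 96.75% of values were whole multiples of the scaled value of 1 read (relative tolerance 1e-05), which was 1.02, 1.00, 0.996 and 0.923 in SFZ of rats 1 and 2 and deep AC of rats 1 and 2. Scaled values under 1 stand at 1, the floor, so the floor means under 1 read in SFZ and at most 1 read in deep AC. The floor fixed the reads of 3375 rows, and reads are printed for these alone. A search up to a sum of 20000 reads gave whole reads for 5371 of 7414 other rows (tolerance 1e-06). The remaining rows, Acan, Hapln1 and Hapln3 among them, were given the level at the search limit or, for 574 rows with finer binary places, a log2 level of 6 in the lowest library at most. Levels enter the minimum level, the trend and the alternatives that rescale the values or add 1 before the log2, quantile normalization among them. The differences of the main fit do not depend on these levels. Reads in rows with known or resolved levels summed to 3748233, 3942240, 3755664 and 3877117 in the same library order, and total depth is unknown.

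Rows averaging 10 or more scaled reads were fitted with limma 3.58.1 in R 4.3.3 (zone and rat as terms, eBayes with trend, two-sided, Benjamini-Hochberg over 8799 rows), which left 1 residual degree of freedom. The recovery and the fit were also run on simulated reads with a fixed spread and no rat effect. That spread was not matched to these libraries, so the run does not show how the fit behaves here. Across tested genes the SD of rat 2 minus rat 1 was 2.71 in SFZ and 1.45 in deep AC. Rat was a block because the titles tie both zones to the same animal; across genes the difference between rats in SFZ correlated with that in deep AC at 0.05. The genes and lists were chosen with earlier results of these data known. Named genes were the set, the 5 genes nearest to Acan, and the 2 of each list with the largest mean difference of the same sign. Col2a1, Has2, Prg4, Mmp3, Adamts1, Adamts4, Adamts5, Rbpjl, Ncan, Bcan, Hapln2, Csgalnact1, B3galt6 and B3gnt2 were named after their values had been seen. Alternatives were no rat term, 2 other scalings, 1 added before the log2, other minimum levels, an untrended prior and leaving out each library. Amplified reads are not independent molecules.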

Additional observations from a re-analysis of the deposited data

How the results depend on the processing

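Acan, Hapln1, Hapln3 and Matn3 were lower in SFZ under each of 11 alternatives. Their adjusted p ran from 0.11 to 0.554 for Acan and from 0.17 to 0.685 for Hapln1. With quantile normalization Hapln3 (-2.66, adjusted p = 0.0434) and Matn3 (-7.20, adjusted p = 0.036) passed, and genes called over the table went from 0 to 30 higher and 57 lower; otherwise their adjusted p ran up to 0.868 and 0.747. That scaling rests on levels that are assumed for Acan, Hapln1 and Hapln3, and it moved the share of lower genes among those 2-fold apart in both rats from 65.0% (1047 lower, 564 higher) to 42.8% (695 lower, 927 higher) and the median of all genes in rat 1 from -0.13 to 0.04. Without any 1 library, in limma fits with no rat term in which a zone with 1 library is taken to vary like the other, Acan ran from -2.28 to -1.79, Hapln1 from -2.00 to -1.21, Hapln3 from -3.38 to -1.50 and Matn3 from -10.31 to -5.85. Matn4 ran from -0.68 to 1.45, and was lower in SFZ without SFZ of rat 2 (-0.68) and without deep AC of rat 2 (-0.68). In the same fits 0 to 3 genes were called higher and 0 to 403 lower: 366 lower and 3 higher without deep AC of rat 1, 403 lower without that of rat 2, where rows with both SFZ libraries at the floor have no spread. Without the replicate block for rat, 0 genes were called and Acan had an adjusted p of 0.242, Hapln1 of 0.293, Hapln3 of 0.319, Matn3 of 0.279 and Matn4 of 0.940; the block changed no call.

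Counts of list genes 2-fold apart in both rats moved by over 1.5 times in a few cases. Hyaluronan genes went from 1 to 0 lower with quantile normalization and where only genes averaging 100 or more scaled reads were used. Proteases and inhibitors went from 0 to 1 higher with quantile normalization and to 2 with a fold of 1.5. Genes of sulfated chains went from 1 to 5 lower with a fold of 1.5 and to 0 with a mean of at least 100, and collagen partners from 0 to 1 higher with a fold of 1.5. Matn4 has no value at a mean of at least 100. Depth limits Matn1, and the floor limits the fold of Matn3 in rat 1.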
